A study of Mus musculus with 12 samples.

Results

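Mouse B cells that had divided 5 times after lipopolysaccharide (LPS), the group Div5, were compared with cells from the same hosts that had divided 3 times, the group Div3. The comparison rests on 4 of the 12 libraries of the series, chosen by division and host number in the labels: 1 Div3 and 1 Div5 library from host 196 and the same from host 197. The series followed transferred B cells across divisions, from undivided cells (Div0) through 1 (Div1), 3 and 5 divisions to cells with 8 or more divisions, split into CD138-negative (Div8neg) and CD138-positive (Div8pos) cells. The design text gives donor cells as B220+ CD43- splenic B cells of naive C57/BL6J mice that carried CFSE or CTV, dyes that are diluted at each division. The hosts were uMT mice, which lack mature B cells of their own, and all groups share the transfer, the LPS challenge and the sort from the spleen on day 3. The labels describe the animals as female, 8 weeks old and of strain B6.SJL-Ptprca Pepcb/BoyJ, and do not say whether that is the donor or the host. Div3 and Div5 cells were therefore collected at the same time and differ in the number of divisions read from the dye. The labels do not state whether the cells of both hosts had separate donors, and the p-values rest on libraries from 2 hosts only.

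LPS drives B cells to divide, and with further divisions some of them become plasmablasts, antibody-secreting cells that carry CD138, the product of Sdc1. BLIMP-1 (gene Prdm1), XBP1 and high IRF4 drive that change, while PAX5, BACH2 and BCL6 hold the B cell state. A secreting cell also enlarges its endoplasmic reticulum (ER), where antibody chains are folded, glycosylated and passed to the Golgi.

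The 4 libraries held 12455454 to 14961666 counts over genes, 257974 to 425814 counts over ERCC spike-in RNAs (synthetic RNAs added in equal amount to each lysate of 40000 cells), and 11253 to 11477 genes with 10 or more counts. Of 21671 genes with a symbol, 11328 had 10 or more counts in both Div3 or in both Div5 libraries and were tested. Changes are given on a pair of scales. Relative changes compare counts scaled to the gene total of the library (CPM) and say how a gene moved against all others, and per-cell changes compare the deposited mRNAs per cell, which rest on the spike-ins. Pairs of values are given with host 196 first and host 197 second, means are ± SD over n = 2 libraries, and a gene is called higher or lower at a Benjamini-Hochberg adjusted p under 0.05. The 8 defining B cell genes, among them Cd79a, Cd79b, Ms4a1, Pax5, Cd22, Blk and Blnk, were all tested and summed to 10330 and 9940 CPM in Div3 and 9861 and 9782 CPM in Div5, with 3 of the 8 lower. Many genes of other cells were low. The T cell genes Cd3e, Cd3d and Cd4 had no more than 6 counts in any of the 4 libraries. Below the filter were 10 of 12 T cell, 7 of 8 natural killer, 5 of 8 listed dendritic and 7 of 9 stromal markers. Other members were not low, among them Lck, Flt3 and Pecam1. The T cell list summed to 218 and 215 CPM in Div3 and 206 and 228 CPM in Div5. The dendritic list summed to 465 and 456 CPM in Div3 and 446 and 417 CPM in Div5. The stromal list summed to 301.1 and 300.5 CPM in Div3 and 258 and 251 CPM in Div5. The macrophage markers summed to 80 and 123 CPM in Div3 and 122 and 141 CPM in Div5, with 3 of 11 tested members higher (Itgam, Fcgr3 and Cd68) and 4 lower (Marco, C1qa, C1qb and C1qc), and with 1 lower without either library of host 197. Of 3 tested dendritic cell markers Itgax was higher and Flt3 lower, and Flt3 lost its call without the Div3 library of host 197 (edgeR adjusted p = 0.138) or either Div5 library (0.0635 for host 196, 0.195 for host 197). The neutrophil markers summed to 7.02 and 23.5 CPM in Div3 and 3.89 and 21.9 CPM in Div5, and the erythroid markers to 40.5 and 12.2 CPM and then 47.1 and 11.8 CPM, so both differed between hosts more than between divisions. The platelet markers summed to 13.8 and 9.02 CPM in Div3 and 7.1 and 6.42 CPM in Div5, with 2 of 3 tested members lower, and 0 lower without the Div3 library of host 196 or either Div5 library. In bulk samples, fewer cells of a type and less RNA per cell cannot be told apart.

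On average per cell, Div5 held more messenger RNA than Div3 in both hosts. The deposited values summed to 43592 and 53533 mRNAs per cell in Div3 and to 75044 and 67988 in Div5. Both Div5 totals lay above both Div3 totals, with a ratio of 1.72 in host 196 and 1.27 in host 197 (mean 1.50 ± 0.319, n = 2). No test was made of this ratio, since 2 against 2 libraries cannot give an exact two-sided p below 0.333. Over genes with a symbol the gain was 31410 mRNAs per cell in host 196 and 14450 in host 197. The cytosolic ribosomal protein genes took 14.2% and 14.3% of that gain, as their sum went from 7307 and 8680 to 11750 and 10750 mRNAs per cell. The largest single gain was that of Eef1a1, which encodes the translation elongation factor that brings charged tRNA to the ribosome, from 267.5 and 302.3 to 453.8 and 410.8 mRNAs per cell. Cd74, the invariant chain of MHC class II, went from 322.8 and 360.9 to 491.8 and 438.5 mRNAs per cell, although its relative change was not called (log2 -0.10). Gains of this size were spread over many abundant genes, and Eef1a1 alone made up 0.643% of the total gain.

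Relative to all genes, 3992 of 11328 tested genes were called (35.2%), of which 2057 were higher in Div5 (18.2%) and 1935 lower (17.1%). Most changes were small: the median size among called genes was 0.317 on the log2 scale, and 146 genes were called at least 2-fold higher and 123 at least 2-fold lower. In 3989 of the 3992 called genes both hosts changed the same way. Leaving out the Div5 library of host 197 gave 2250 called genes and leaving out the Div3 library of host 196 gave 2361. DESeq2 called 1529 higher and 1191 lower. Per cell, 5917 genes were called (52.2%), 5863 higher (51.8%) and 54 lower (0.477%). This count rests heavily on single libraries: it was 276 without the Div3 library of host 196, 676 without the Div5 library of host 196 and 3388 without the Div3 library of host 197. The per-cell calls are also not independent of each other. All genes of a library share 1 spike-in factor, so a shift of the total moves all of them together. When only the 4 Div3 and Div5 libraries were fitted, 315 genes were called per cell. The median per-cell log2 change of all tested genes was 0.481, with 0.69 in host 196 and 0.279 in host 197. List medians per cell given below are to be read beside it. When relative library sizes are replaced by sizes scaled to the spike-ins, the median of all tested genes moves from -0.0045 to 0.54, so a gene called lower below has lost share, which is not by itself a fall in number. Of the 1935 genes lower in share, 53 were also lower per cell, 1882 were not called per cell and 0 were higher per cell.

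Among genes of at least 10 CPM, Gstt1 and Gstt3, neighbouring glutathione transferases of the theta class, had some of the largest rises. Gstt1 had 3.97 and 5.8 CPM in Div3 and 27.9 and 29.8 CPM in Div5 (5.86-fold higher, log2 2.55, SE 0.14, edgeR adjusted p = 3.64e-10), and Gstt3 had 4.28 and 5.47 CPM in Div3 and 22.3 and 26.6 CPM in Div5 (5-fold higher, log2 2.32, SE 0.13, edgeR adjusted p = 3.64e-10). Neither gene had overlapping values between the groups, and because these are close paralogs the split of reads between them is uncertain. Gstt2 of the same cluster rose from 109 ± 10.7 to 246 ± 18.6 CPM (2.26-fold, edgeR adjusted p = 3.64e-10). Pik3r6, a regulatory subunit of the gamma form of PI3 kinase, had 16.2 and 12.3 CPM in Div3 and 74.4 and 61.4 CPM in Div5 (4.79-fold higher, log2 2.26, SE 0.09, edgeR adjusted p = 1.03e-11). Its catalytic partner Pik3cg moved the other way, with 117 and 87.5 CPM in Div3 and 54 and 44.9 CPM in Div5 (2.06-fold lower, log2 -1.04, SE 0.11, edgeR adjusted p = 8.74e-07). Both genes separated the groups completely, in opposite directions, and the other regulatory subunit of this enzyme, Pik3r5, was not called (log2 -0.049). Further genes among the 10 largest rises were Cln8, an ER protein that carries lysosomal enzymes (from 2.64 ± 0.275 to 10.6 ± 1.43 CPM, 4-fold, edgeR adjusted p = 1.66e-07), Bhlhe41, Igj, Fam149a (3.71-fold), Lrp8, a receptor for apolipoprotein E (3.18-fold), and Gas7 (from 11.5 ± 0.904 to 36.1 ± 0.703 CPM, 3.15-fold, edgeR adjusted p = 1.6e-09).

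Among genes of at least 10 CPM, the largest loss of share was that of Sidt1, which encodes a membrane protein of the RNA-transport SID-1 family, with 27.1 and 25.5 CPM in Div3 and 9.69 and 6.38 CPM in Div5 (3.26-fold lower, log2 -1.71, SE 0.12, edgeR adjusted p = 1.01e-08). Abca1, which exports cholesterol from cells, had 12.2 and 8.83 CPM in Div3 and 3.85 and 2.63 CPM in Div5 (3.21-fold lower, log2 -1.68, SE 0.21, edgeR adjusted p = 8.3e-06). Fcgrt, the neonatal Fc receptor that rescues antibody from breakdown, had 32.8 and 23.1 CPM in Div3 and 10.9 and 7.41 CPM in Div5 (3.02-fold lower, log2 -1.59, SE 0.13, edgeR adjusted p = 7.07e-08). In all 3 genes both Div5 values lay below both Div3 values. Zfp318, the nuclear factor needed to make IgD from the heavy chain transcript, fell from 235 ± 30.8 to 89.2 ± 7.12 CPM (2.63-fold, edgeR adjusted p = 1.03e-11). Ell3, an elongation factor of RNA polymerase II, fell from 89.5 ± 9.68 to 35.6 ± 4.47 CPM (2.51-fold, edgeR adjusted p = 6.51e-10), and Shank1, known as a synaptic scaffold, fell from 237 ± 3.5 to 96.8 ± 11.1 CPM (2.45-fold, edgeR adjusted p = 1.62e-10). Marco, a scavenger receptor of macrophages, had 8.25 and 15.1 CPM in Div3 and 4.96 and 2.95 CPM in Div5 (2.98-fold lower, log2 -1.57, SE 0.28, edgeR adjusted p = 0.000297), and the complement genes C1qb (log2 -1.39, edgeR adjusted p = 0.00233) and C1qa (log2 -1.15, edgeR adjusted p = 0.0415), also made by macrophages, were lower with it. In the C1q genes the call rested on host 197. The edgeR adjusted p was 0.178 for C1qb and 0.762 for C1qa without its Div3 library, and 0.0702 and 0.493 without its Div5 library. C1qa was also not called without the host block (0.0669) or with DESeq2 (0.134). The part of macrophage RNA in other changes was not tested. Pacsin1, a membrane-bending protein of endocytosis (2.66-fold), Lrrc16b (2.56-fold) and Smagp (2.4-fold) completed the 10 largest falls at that level.

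Among regulators of the plasma cell programme, Prdm1 and Xbp1 had risen by Div5 while Irf4 had not. Prdm1 was at 4.66 and 8.89 CPM in Div3 and 17.5 and 25.9 CPM in Div5 (3.14-fold higher, log2 1.65, SE 0.20, edgeR adjusted p = 5.15e-06). The increase was seen in both hosts, from a Div3 level close to the Div1 mean of 5.1 CPM, and the Div5 mean of 21.7 ± 5.97 CPM remained well under the 330.2 ± 6.79 CPM of Div8pos. Xbp1 was at 93.3 and 111 CPM in Div3 and 145 and 166 CPM in Div5 (1.52-fold higher, log2 0.61, SE 0.07, edgeR adjusted p = 2.02e-06), and per cell at 5.94 and 8.7 mRNAs per cell in Div3 and 15.8 and 16.2 in Div5 (log2 1.14, limma adjusted p = 1.4e-05, and 0.0538 without the Div3 library of host 196). Irf4 was at 175 and 174 CPM in Div3 and 144 and 163 CPM in Div5, a small loss of share (1.14-fold lower, log2 -0.18, SE 0.06, edgeR adjusted p = 0.022). Its values did not overlap, but the call was lost without the host block (adjusted p = 0.0505) and without the Div3 or the Div5 library of host 196 (0.16 and 0.298), and per cell Irf4 was not called (log2 0.35, limma adjusted p = 0.15). Its means were 218 CPM in Div1, 175 in Div3, 154 in Div5, 240.4 in Div8neg and 1211 in Div8pos, so Div5 held the lowest of these 5 means.

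Zbtb32, a transcriptional repressor, was at 80.7 and 132 CPM in Div3 and 274 and 345 CPM in Div5 (2.93-fold higher, log2 1.55, SE 0.11, edgeR adjusted p = 7.06e-09). Bhlhe41, a basic helix-loop-helix repressor known from B-1 cells, was at 20.9 and 25.3 CPM in Div3 and 83.9 and 101 CPM in Div5 (4-fold higher, log2 2.00, SE 0.11, edgeR adjusted p = 3.64e-10). Both genes separated the groups in both hosts, and both were highest in Div8neg, with means of 494 and 190.2 CPM, and lower again in Div8pos (20.7 and 53.7 CPM). Of the 20 plasma cell regulators tested, 9 were higher (45.0%) and 4 were lower (20%), against 18.2% and 17.1% of all tested genes. The lower share was near that of all genes. The 9 higher members include Zbtb32 and Bhlhe41, although both were lower in Div8pos than in Div8neg. The median log2 change was 0.18 relative to all genes and 0.70 per cell. The other risers were Eaf2, a partner of the ELL elongation factors (log2 0.82), the ER-bound factors Atf6 (0.47) and Creb3l2 (0.48), Zbtb20 (0.48) and Batf (0.34). Eaf2 lost its call without the host block (adjusted p = 0.0529), without the Div3 library of host 196 (0.086) and without the Div5 library of host 197 (0.149). Ell2, the elongation factor that favours secretory heavy chain mRNA, was not called (log2 0.19). Along with Irf4, the genes that lost share were Aff1, Aff4 and Bhlhe40 (log2 -0.34, -0.23 and -0.26). Lower regulators numbered 2 without the Div3 library of host 196.

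Several plasma cell products rose from low levels. Igj, which encodes the J chain that joins IgM and IgA, was at 12.8 and 17.9 CPM in Div3 and 36.2 and 63.2 CPM in Div5 (3.2-fold higher, log2 1.68, SE 0.16, edgeR adjusted p = 3.19e-07). Sdc1 was at 1.15 and 2.37 CPM in Div3 and 2.66 and 4.7 CPM in Div5, and both Div5 values of this CD138 gene lay above both Div3 values, if narrowly (2.02-fold higher, log2 1.02, SE 0.38, edgeR adjusted p = 0.0441). That call was lost without the host block (adjusted p = 0.0663), without the Div3 library of host 196 (0.279) and without the Div5 library of host 197 (0.441). Il10, the regulatory cytokine, rose from 2.92 ± 0.246 to 8.24 ± 3.8 CPM (2.79-fold, edgeR adjusted p = 5.37e-05), Fam46c, a poly(A) polymerase of plasma cells, rose from 9.05 ± 3.41 to 19.5 ± 6.51 CPM (2.12-fold, edgeR adjusted p = 0.000404), and Itgam, the integrin chain CD11b, rose from 24.5 ± 7.25 to 65.7 ± 20.1 CPM (2.66-fold, edgeR adjusted p = 1.01e-08). Itgam is also a macrophage marker, and of the other macrophage markers 2 were higher and 4 lower. In the later step given below, Itgam was lower in Div8pos than in Div8neg. In this list of surface and secretory products 11 of 25 tested members were higher (44.0%) and 5 lower (20%), against 18.2% and 17.1% of all tested genes. The median log2 change was 0.49 relative to all genes and 0.85 per cell. Derl3 (log2 0.89), Mzb1 (0.48), Txndc5 (0.49), Ly6k (0.50), Cd9 (0.70) and Gpr55 (0.94) also rose. Slamf7, Glcci1, Trp53inp1, Pecam1 and Cd200 lost share (log2 -0.39, -0.43, -0.50, -0.25 and -0.43).

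**Figure D1:**
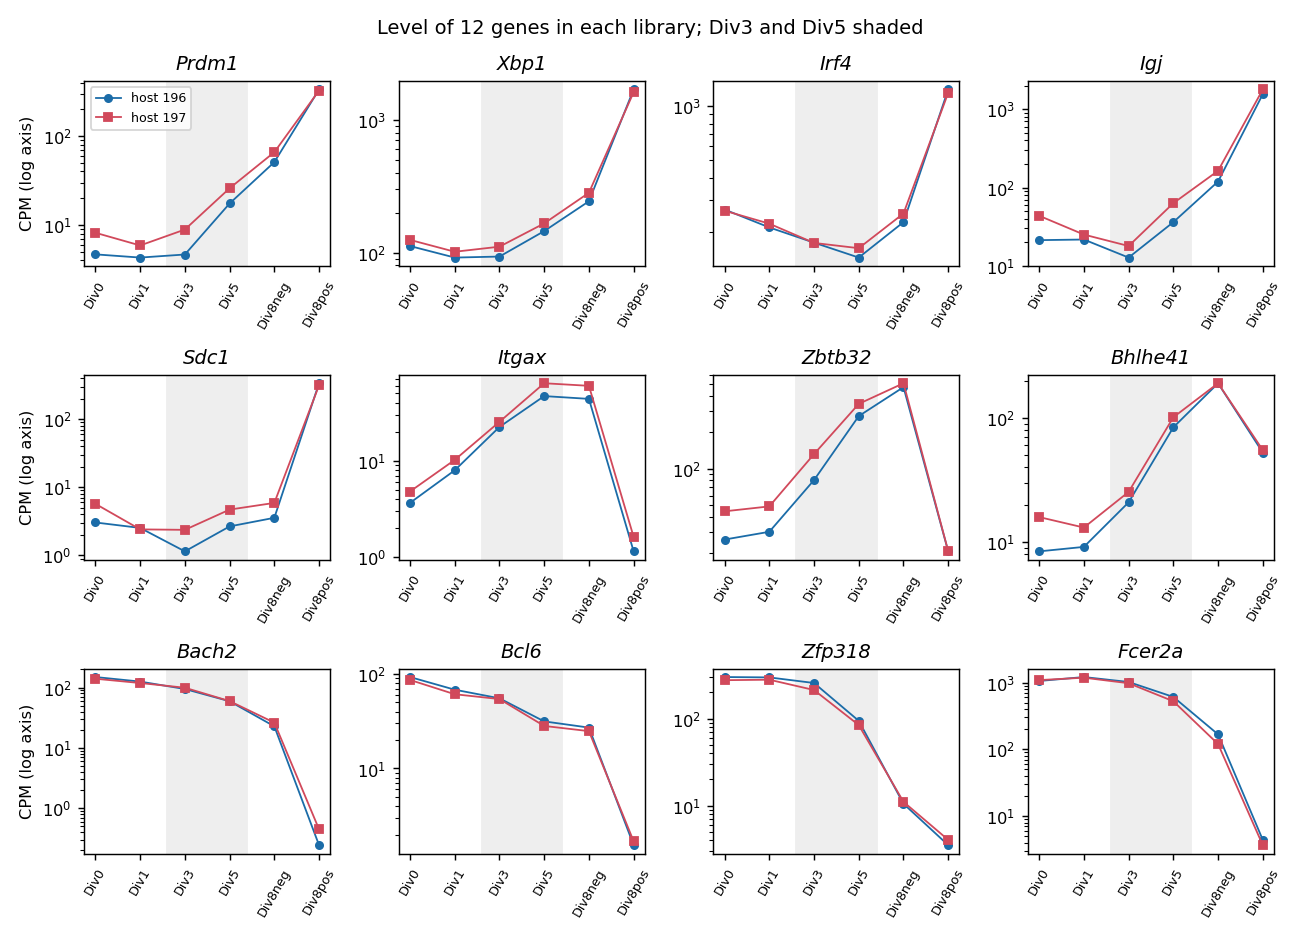
CPM on a log axis for 12 regulator, product and surface genes in the 12 libraries, with 1 line per host over the 6 sorted groups and Div3 and Div5 shaded. Prdm1, Igj, Itgax, Zbtb32 and Bhlhe41 rise in both hosts between Div3 and Div5, Bach2, Bcl6, Zfp318 and Fcer2a fall, and Irf4 dips slightly, from 175 and 174 to 144 and 163 CPM, although its sign turns with spike-in scaling (log2 0.36).

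Many B cell transcription factors lost share, by small to moderate amounts. Of 26 tested, 12 were lower (46.2%, against 17.1% of all tested genes) and 3 higher (11.5%), and the median log2 change was -0.12 relative to all genes and 0.42 per cell. Bcl6, the repressor of germinal centre cells, was at 55.1 and 54.2 CPM in Div3 and 31.4 and 28.1 CPM in Div5 (1.84-fold lower, log2 -0.88, SE 0.07, edgeR adjusted p = 3.47e-08). Bach2, the repressor of Prdm1, was at 94.6 and 99.3 CPM in Div3 and 59.3 and 59.6 CPM in Div5 (1.63-fold lower, log2 -0.71, SE 0.07, edgeR adjusted p = 2.09e-07). Div3 and Div5 did not overlap for either gene. Per cell neither was called (log2 -0.32, limma adjusted p = 0.184 for Bcl6, and log2 -0.15, limma adjusted p = 0.514 for Bach2), and in number Bach2 was at 1.07 and 1.38 mRNAs per cell in Div3 and 1.14 and 1.03 in Div5. Pax5, the B cell commitment factor, changed little, at 392 and 375 CPM in Div3 and 361 and 323 CPM in Div5 (1.12-fold lower, log2 -0.17, SE 0.05, edgeR adjusted p = 0.0118). Its call was lost without the Div3 library of either host (0.0825 for 196, 0.0597 for 197) or the Div5 library of host 197 (0.264), and spike-in scaling turns its log2 change to 0.39. Foxo1 (log2 -0.50), Relb (-0.34), Ebf1 (-0.34), Foxp1 (-0.30), Ets1 (-0.30), Spib (-0.28), Ciita (-0.25) and Id3 (-0.25) were also lower. Klf2, which directs recirculation and quiescence, rose from 107 ± 17.5 to 156 ± 35.1 CPM (1.45-fold, edgeR adjusted p = 2.07e-05), with smaller rises of Tcf4 (log2 0.21) and the coactivator Pou2af1 (0.13). Spi1, Irf8, Ikzf1, Ikzf3, Tcf3 and Mef2c were among the 11 that were not called.

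Several surface receptors of B cells lost share and others rose. Fcer2a, which encodes CD23, was at 1019 and 976 CPM in Div3 and 608 and 524 CPM in Div5 (1.77-fold lower, log2 -0.82, SE 0.08, edgeR adjusted p = 2e-07). Faim3, the IgM Fc receptor, was at 283 and 266 CPM in Div3 and 151 and 140.2 CPM in Div5 (1.88-fold lower, log2 -0.91, SE 0.07, edgeR adjusted p = 1.24e-08), and Cr2, complement receptor 2, was at 1350.4 and 1032 CPM in Div3 and 839.8 and 680.3 CPM in Div5 (1.56-fold lower, log2 -0.64, SE 0.07, edgeR adjusted p = 6.4e-07). All 3 were lower in both Div5 libraries than in either Div3 library, and none was called per cell. Fcgr2b, the inhibitory IgG Fc receptor, rose from 349 ± 18.8 to 551 ± 61.1 CPM (1.58-fold, edgeR adjusted p = 3.26e-08), and Cd24a rose as well (log2 0.48). In the list of surface and B cell receptor signalling genes, 14 of 40 were lower (35.0%) and 6 higher (15%). Of all tested genes 17.1% were lower and 18.2% higher, so the share of higher members was near that of all genes. The median log2 change of the list was -0.061 relative to all genes and 0.48 per cell. The receptor core was mostly not called: Ms4a1, Cd22, Cd79a, Btk, Blnk and Lyn were among the 20 without a call. The higher count was 3 without the Div5 library of host 197.

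MHC class II genes lost share together, by small amounts. The call was lower for 11 of 15 tested members (73.3%) and higher for 0, against 17.1% and 18.2% of all tested genes. The median log2 change was -0.23 relative to all genes and 0.31 per cell. The largest falls were in H2-Oa (from 313 ± 26.8 to 212 ± 15.8 CPM, 1.48-fold, edgeR adjusted p = 1.49e-07) and H2-Ob (from 885 ± 46.1 to 671 ± 13.7 CPM, 1.32-fold, edgeR adjusted p = 3.2e-06), whose product restrains peptide loading, in H2-Eb2 (log2 -0.48) and in Rfx5, a factor of the class II promoter (log2 -0.41). The peptide-presenting chains H2-Aa and H2-Eb1 fell by 0.17 each on the log2 scale, and H2-Ab1 and Cd74 were not called. In the scaling to spike-ins H2-Ob, H2-Eb2 and Rfx5 turned to log2 changes of 0.15, 0.07 and 0.14. The summed level of the list was 14460 and 13340 CPM in Div3 and 12360 and 12130 CPM in Div5, lower in both hosts.

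Costimulatory genes were more often lower than higher. Icosl, the ICOS ligand, was at 409.9 and 353 CPM in Div3 and 228 and 185 CPM in Div5 (1.85-fold lower, log2 -0.89, SE 0.06, edgeR adjusted p = 6.49e-09), with no overlap between groups. Cd80, a ligand of CD28, rose from 13.6 ± 0.0153 to 24.9 ± 2.94 CPM (1.83-fold, edgeR adjusted p = 3.95e-06), and Tnfrsf1b, the second TNF receptor, rose from 29.7 ± 0.353 to 50.9 ± 2.79 CPM (1.71-fold, edgeR adjusted p = 1.53e-06). Cd40 (log2 -0.39), Cd83 (-0.54), Pdcd1lg2 (-0.59) and Il6ra (-0.38) lost share, while Cd86 (0.25) and Cd44 (0.45) gained. Of 23 tested members 12 were lower (52.2%) and 4 higher (17.4%), against 17.1% and 18.2% of all tested genes. The median log2 change was -0.26 relative to all genes and 0.28 per cell. Without the Div5 library of host 196 the lower count was 7.

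Homing genes changed in both directions. Cxcr3, a receptor for inflammatory chemokines, was at 66.8 and 74.3 CPM in Div3 and 138 and 143 CPM in Div5 (1.99-fold higher, log2 1.00, SE 0.08, edgeR adjusted p = 3.83e-08), and Itgax, the integrin chain CD11c that also marks dendritic cells, was at 22.4 and 25.3 CPM in Div3 and 46.8 and 63.7 CPM in Div5 (2.32-fold higher, log2 1.21, SE 0.08, edgeR adjusted p = 1.62e-09). The groups were fully apart for both. Itgb1, the beta-1 integrin chain, rose from 237 ± 16.5 to 392 ± 32.6 CPM (1.65-fold, edgeR adjusted p = 1.18e-08), and Cxcr4, the receptor that brings plasma cells to bone marrow, rose from 11.5 ± 2.61 to 19.8 ± 2.72 CPM (1.71-fold, edgeR adjusted p = 0.00028). The follicle receptor Cxcr5 (log2 -0.52) and the gut-homing chains Itgb7 (-0.52) and Itga4 (-0.35) lost share, and Ccr7, S1pr1 and Gpr183 were not called. Of 29 tested members 10 were higher (34.5%) and 7 lower (24.1%), with 4 lower without either library of host 196, and the median log2 change was 0.0073 relative to all genes and 0.54 per cell. Of all tested genes 18.2% were higher and 17.1% lower, so the lower share of the homing list was near that of all genes. Of 17 tested genes of marginal zone and B1 cells, 7 were higher (41.2%) and 7 lower (41.2%). The higher ones include Zbtb32 and Bhlhe41, also counted as plasma cell regulators, and Cd9 and S1pr3, also counted as homing genes. The median log2 change of this list was 0.21 relative to all genes and 0.71 per cell. On the higher side were Spn, which encodes CD43 (from 26.8 ± 8.01 to 74.5 ± 18.3 CPM, 2.75-fold, edgeR adjusted p = 5.99e-07), and Ahnak (from 27.7 ± 1.91 to 71.3 ± 13.9 CPM, 2.57-fold, edgeR adjusted p = 9.25e-10). Cd1d1 (log2 -0.47), Cr2 and Notch2 (-0.13) were lower. As donor cells were selected as CD43-, the rise of Spn concerns a gene whose product had been selected against at transfer.

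**Figure D2:**
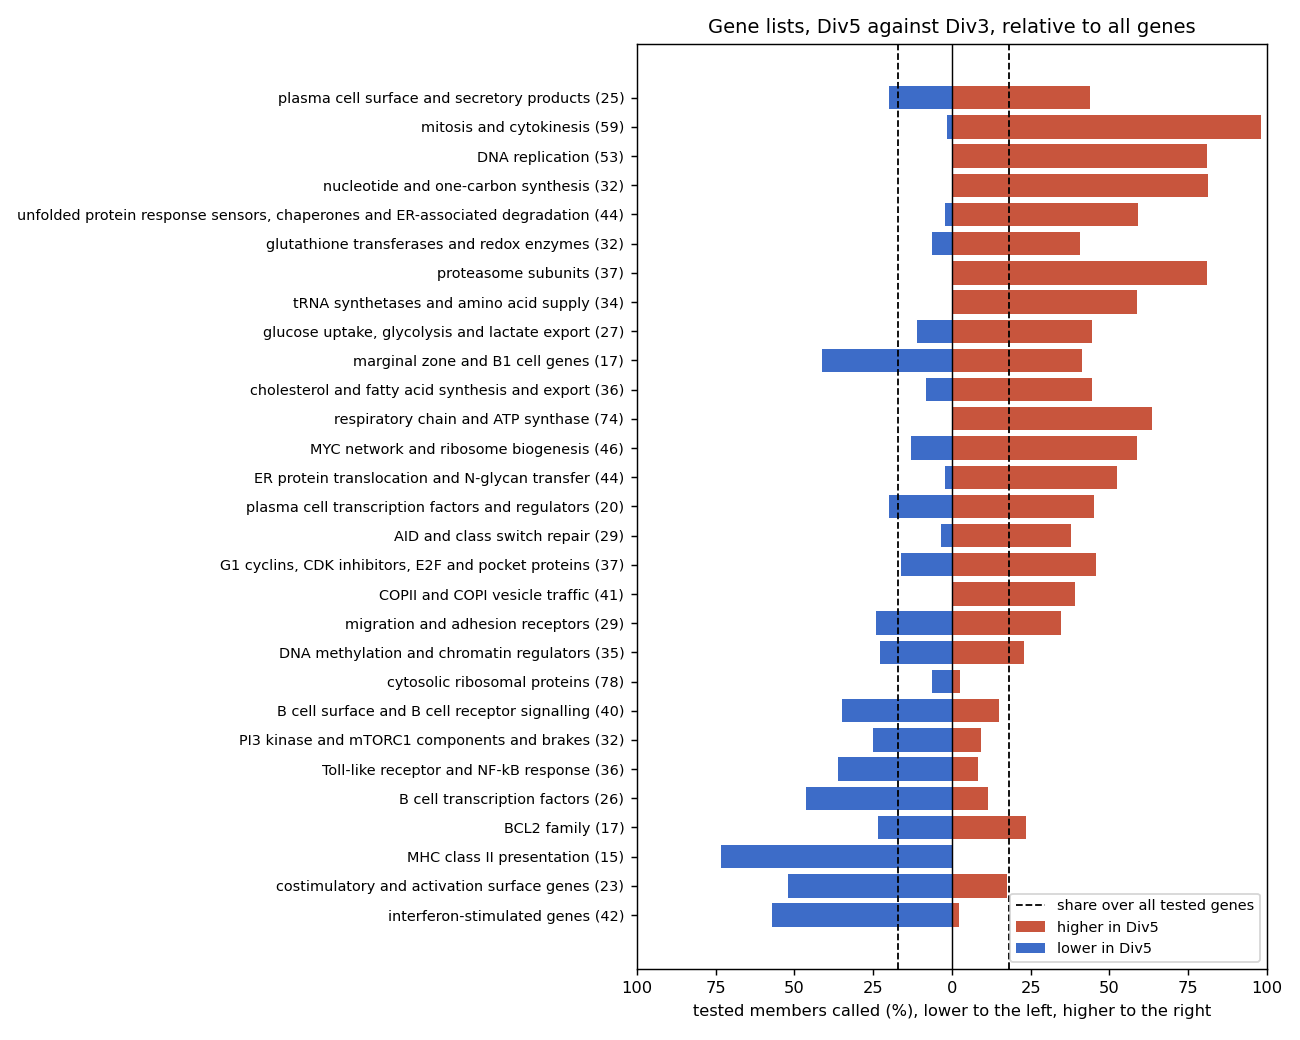
Share of tested members called lower (left, blue) and higher (right, red) in Div5 against Div3 for 29 gene lists, relative to all genes, with the number tested in parentheses and dashed lines at the shares of all tested genes (17.1% and 18.2%). Mitosis, replication, nucleotide and proteasome lists lie far to the right and MHC class II and interferon lists to the left, while per cell the medians of all of these lists were above 0.

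Many folding and quality control genes of the ER were higher at Div5. Of 44 tested genes of the unfolded protein response, its chaperones and ER-associated degradation, 26 were higher (59.1%) and 1 lower (2.27%). The shares over all tested genes were 18.2% and 17.1%. The list median log2 change was 0.31 relative to all genes and 0.78 per cell, where that of all tested genes was 0.481. With 1 library left out 19 to 22 were called higher. The list summed to 7811 and 8645 CPM in Div3 and 9744 and 10860 CPM in Div5, so both hosts gained. Among the sensors, Ern1, which splices Xbp1 mRNA, and Atf6 rose (log2 0.40 and 0.47), while Eif2ak3, which encodes PERK, and its effector Atf4 were not called (log2 0.16 and 0.086). Ddit3, which encodes CHOP, was the only lower member (log2 -0.46), and no member was lower without the Div3 library of host 196 or the Div5 library of host 197. Of the chaperones, Hspa5 (log2 0.48), Hsp90b1 (0.63), Hyou1 (0.48), Calr (0.35) and the disulfide isomerase Pdia6 (0.61) rose. Sdf2l1, a cofactor of the BiP cycle, was at 41.5 and 60.4 CPM in Div3 and 81.1 and 93.9 CPM in Div5 (1.72-fold higher, log2 0.78, SE 0.08, edgeR adjusted p = 7.85e-07). Creld2, an ER-stress-induced disulfide protein, was at 47 and 66.2 CPM in Div3 and 82.7 and 108 CPM in Div5 (1.69-fold higher, log2 0.76, SE 0.08, edgeR adjusted p = 1.81e-06), and Manf, a secreted ER-stress protein, was at 84.2 and 101 CPM in Div3 and 129.8 and 158 CPM in Div5 (1.55-fold higher, log2 0.64, SE 0.06, edgeR adjusted p = 1.99e-07). All Div5 values of these 3 genes exceeded all Div3 values. Fkbp11 had the largest fold of the list (from 1.32 ± 0.288 to 3.16 ± 1.85 CPM, 2.38-fold, edgeR adjusted p = 0.0168) at a low level, and lost its call without the host block (adjusted p = 0.0523), with DESeq2 (0.0582) and without the Div3 or the Div5 library of host 197 (0.177 and 0.416).

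Some promoters of this list held the ER stress response element (ERSE), the site class described for ATF6 and XBP1. Of these, 3 are shown because they belong to members that rose. The element searched was CCAAT, any 9 bases and CCACG, on both strands, in the 250 bases upstream of each RefSeq start (GRCm38.p6, matched by gene ID). It was found for 9 of the 40 genes of the list with a promoter (22.5%), against 0.198% of the 9078 tested genes with a promoter and 0.13% of all 27025 genes. It includes the shorter motif CCAAT at its end. The list was chosen for genes of this response, so the contrast with all tested genes was not a test of the element. Members with it were higher in 7 of 9 cases (median log2 0.38) and members without it in 15 of 31 (median 0.16), a description that was not tested. Outside the list, 9 tested genes held it, of which 2 were higher and 1 lower. The stretches lie at chr15:88819479-88819578 on the plus strand for Creld2, chr10:86705595-86705694 on the minus strand for Hsp90b1 and chr12:17266450-17266549 on the plus strand for Pdia6, and are written 5′ to 3′ on the gene's strand with the element in capitals, reading as its reverse complement in Creld2.
Creld2: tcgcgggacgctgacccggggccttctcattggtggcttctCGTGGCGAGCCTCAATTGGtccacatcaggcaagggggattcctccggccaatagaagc
Hsp90b1: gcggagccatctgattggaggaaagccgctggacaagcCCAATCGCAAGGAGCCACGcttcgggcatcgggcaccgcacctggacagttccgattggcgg
Pdia6: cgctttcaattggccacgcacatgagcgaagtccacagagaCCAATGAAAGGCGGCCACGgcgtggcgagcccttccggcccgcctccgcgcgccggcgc

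Many genes of entry into the ER and of traffic out of it were higher too, with smaller steps. Of 44 tested genes of ER translocation and N-glycan transfer, 23 were higher (52.3%) and 1 lower (2.27%). The shares over all tested genes were 18.2% and 17.1%. The list median log2 change was 0.20 relative to all genes and 0.72 per cell. The count of higher members was 14 without the Div5 library of host 197. Rpn1, a subunit of the oligosaccharyltransferase, was at 179 and 210.4 CPM in Div3 and 259 and 279 CPM in Div5 (1.39-fold higher, log2 0.47, SE 0.05, edgeR adjusted p = 2.35e-06), above both Div3 values in both hosts. Spcs3, of the signal peptidase (from 83.5 ± 0.903 to 114 ± 2.27 CPM, 1.37-fold, edgeR adjusted p = 7.02e-06), Magt1 (log2 0.43) and the channel subunits Sec61a1 (0.26) and Sec61b (0.41) rose. Tusc3, which replaces Magt1 in the oligosaccharyltransferase, was the lower one (from 26.6 ± 1.37 to 19.4 ± 2.65 CPM, 1.37-fold, edgeR adjusted p = 0.00142), turning to a log2 change of 0.08 with spike-in scaling and to an adjusted p of 0.0666 without the Div5 library of host 196. Of 41 tested COPII and COPI genes 16 were higher (39.0%) and 0 lower at the adjusted threshold, and the median log2 change was 0.11 relative to all genes and 0.62 per cell, but only 9 were higher without the Div3 library of host 196, 10 without the Div5 library of host 196 and 7 without the Div5 library of host 197. Sec24d, a cargo adaptor of COPII coats, had the largest fold (from 3.65 ± 1.27 to 9.25 ± 3.04 CPM, 2.5-fold, edgeR adjusted p = 0.00156), and without the Div5 library of host 197 its adjusted p was 0.0544. The cargo receptors Lman1 and Surf4 and the retrieval receptor Kdelr2 rose (log2 0.36, 0.32 and 0.43).

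Genes of mitosis and DNA synthesis rose together, and mitosis had the largest share of called members of the 29 lists. Of 59 tested mitosis and cytokinesis genes 58 were higher (98.3%) and 1 lower (1.69%), against 18.2% and 17.1% of all tested genes. The median log2 change was 0.45 relative to all genes and 0.96 per cell. With 1 library left out 53 to 58 were called higher. Aurka, the centrosomal Aurora kinase, was at 39.4 and 46.8 CPM in Div3 and 68.1 and 69.8 CPM in Div5 (1.6-fold higher, log2 0.67, SE 0.09, edgeR adjusted p = 2.09e-05). Ccnb1, the mitotic cyclin B1, was at 70 and 78 CPM in Div3 and 111 and 123 CPM in Div5 (1.57-fold higher, log2 0.65, SE 0.07, edgeR adjusted p = 2.72e-06), and Bub1, a spindle checkpoint kinase, was at 47.1 and 47.9 CPM in Div3 and 70.4 and 73.6 CPM in Div5 (1.51-fold higher, log2 0.60, SE 0.06, edgeR adjusted p = 7.59e-07). The groups did not overlap for these genes, and Plk1, Cdk1, Top2a and Mki67 rose too (log2 0.59, 0.52, 0.42 and 0.35). The exception was Pttg1, which encodes securin, the inhibitor of separase (log2 -0.36), and no member was lower without the Div3 library of host 197 or the Div5 library of host 196. The list summed to 5805 and 6505 CPM in Div3 and 8091 and 8479 CPM in Div5. Of 53 tested replication genes 43 were higher (81.1%) and 0 lower, and the median log2 change was 0.39 relative to all genes and 0.93 per cell. All of Mcm2 to Mcm7, the subunits of the replicative helicase, were higher, by 0.39 (Mcm7) to 0.54 (Mcm5) on the log2 scale. The loading factor Cdc6 was at 34.1 and 41.8 CPM in Div3 and 54.9 and 63.3 CPM in Div5 (1.55-fold higher, log2 0.64, SE 0.08, edgeR adjusted p = 5.48e-06), the helicase factor Mcm10 at 46.4 and 58.4 CPM in Div3 and 80.2 and 84.9 CPM in Div5 (1.57-fold higher, log2 0.65, SE 0.07, edgeR adjusted p = 2.11e-06). Both were above all Div3 values in both Div5 libraries.

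The cell cycle homology region (CHR), a short motif of G2 and M phase promoters, was searched as TTTGAA on both strands in the same 250-base windows, and 3 promoters of the block are shown as examples. It was found for 18 of 49 mitosis genes with a promoter (36.7%), against 12.7% of tested genes and 18.3% of all genes. All 18 with the motif were higher, as were 30 of the 31 without it. With 1 gene of the 49 not higher, these counts say nothing of the motif. The motif CCAAT was found for 35 of the 49 (71.4%), against 41.1% of tested genes. The stretches lie at chr2:129297213-129297312 on the minus strand for Ckap2l, chr3:27153940-27154039 on the minus strand for Ect2 and chr9:70421669-70421768 on the minus strand for Ccnb2, the genes of a spindle protein, a cytokinesis exchange factor and cyclin B2. They are written on the gene's strand with the CHR motif in capitals, as its reverse complement in Ckap2l.
Ckap2l: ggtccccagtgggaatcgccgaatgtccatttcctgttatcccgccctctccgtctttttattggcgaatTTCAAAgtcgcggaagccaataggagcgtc
Ect2: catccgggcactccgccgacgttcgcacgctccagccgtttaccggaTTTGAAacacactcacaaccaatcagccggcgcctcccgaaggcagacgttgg
Ccnb2: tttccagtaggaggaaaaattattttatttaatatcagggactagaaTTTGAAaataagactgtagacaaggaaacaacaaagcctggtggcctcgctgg

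Cell cycle control genes were mixed. Ccne1, the G1/S cyclin E1, was at 28.8 and 32.3 CPM in Div3 and 47.9 and 55.9 CPM in Div5 (1.69-fold higher, log2 0.76, SE 0.10, edgeR adjusted p = 1.47e-05), without overlap. Cdkn1a and Cdkn2a, inhibitors of cyclin-dependent kinases, rose at very low levels. Cdkn2a was at 0.382 and 0.461 CPM in Div3 and 1.55 and 2.39 CPM in Div5 (4.52-fold higher, log2 2.18, SE 0.46, edgeR adjusted p = 0.00123). It passed the count filter only through its Div5 libraries, with 5 and 7 counts in Div3 and 21 and 30 in Div5. Cdkn1a rose from 1.33 ± 0.261 to 2.85 ± 0.259 CPM (2.13-fold, edgeR adjusted p = 0.00647). Ccnd2 (log2 -0.31), Cdkn1b (-0.17), Ccng2 (-0.43) and the antiproliferative Btg1 (-0.42) and Btg2 (-0.29) lost share, while Ccnd3 (0.30), Cdk4 (0.23) and E2f1 (0.41) gained. In all 17 of 37 were higher (45.9%) and 6 lower (16.2%), against 18.2% and 17.1% of all tested genes. The median log2 change was 0.15 relative to all genes and 0.64 per cell. Higher members numbered 10 without the Div5 library of host 197.

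Genes of ribosome assembly and polyamine synthesis rose, while Myc itself did not. Myc was at 181 and 214 CPM in Div3 and 162 and 165 CPM in Div5 (1.2-fold lower, log2 -0.27, SE 0.07, edgeR adjusted p = 0.00629). Both Div5 values lay below both Div3 values, but the call was lost without either library of host 197 (adjusted p = 0.111 without Div3, 0.132 without Div5), and with spike-in scaling the log2 change was 0.28. Its network partners Max, Mnt, Mga, Mxd1 and Mxd4 were lower (log2 -0.14, -0.20, -0.28, -0.35 and -0.70), and Mxd3, the member linked to S phase, was higher (0.26). The targets Odc1 (from 149 ± 13.8 to 204 ± 15.3 CPM, 1.37-fold, edgeR adjusted p = 1.01e-05) and Srm (from 68.9 ± 12.3 to 95.8 ± 2.29 CPM, 1.39-fold, edgeR adjusted p = 0.000198), enzymes of polyamine synthesis, and the ribosome assembly factor Rrp12 (from 47.1 ± 4.34 to 65.2 ± 1.43 CPM, 1.38-fold, edgeR adjusted p = 0.000177) rose. For this list of the MYC network and ribosome biogenesis 27 of 46 were higher (58.7%) and 6 lower (13.0%). The shares over all tested genes were 18.2% and 17.1%. The list median log2 change was 0.20 relative to all genes and 0.73 per cell. Lower members numbered 3 without any 1 of Div3 of either host or Div5 of host 196, and 2 without Div5 of host 197. The higher count depended on the libraries: it was 9 without Div3 of host 196, 10 without Div5 of either host and 20 without Div3 of host 197, and 17 with no host block. Of 78 cytosolic ribosomal protein genes 2 were higher and 5 lower (medians -0.054 relative and 0.49 per cell), with 1 higher when any 1 library was left out. The lower count was 1 without either library of host 196, 2 without Div3 and 3 without Div5 of host 197. The list made up 16.8% and 16.2% of mRNAs per cell in Div3 and 15.7% and 15.8% in Div5. Rps27l, a variant induced through p53, had the largest rise of the list (from 26.1 ± 2.73 to 39.9 ± 6.23 CPM, 1.52-fold, edgeR adjusted p = 2.9e-05).

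Many genes of amino acid, nucleotide and energy supply were higher at Div5. Of 34 tested genes of tRNA charging and amino acid supply 20 were higher (58.8%) and 0 lower, against 18.2% and 17.1% of all tested genes. The median log2 change was 0.25 relative to all genes and 0.77 per cell. Asns, which makes asparagine, was at 2.6 and 3.62 CPM in Div3 and 7.1 and 8.77 CPM in Div5 (2.54-fold higher, log2 1.35, SE 0.17, edgeR adjusted p = 6.59e-06). Slc7a5, the large neutral amino acid transporter, was at 61.3 and 72.4 CPM in Div3 and 97.2 and 114 CPM in Div5 (1.58-fold higher, log2 0.66, SE 0.08, edgeR adjusted p = 4.09e-06), and Slc7a1, the cationic one, at 149 and 166 CPM in Div3 and 235 and 243 CPM in Div5 (1.52-fold higher, log2 0.60, SE 0.06, edgeR adjusted p = 6.99e-07). The Div5 values of all 3 exceeded their Div3 values in each host. Psat1 and Phgdh of serine synthesis rose (log2 0.52 and 0.48), and Slc3a2 and Slc1a5 were not called. Of 32 tested nucleotide and one-carbon genes 26 were higher (81.2%) and 0 lower, and the median log2 change was 0.34 relative to all genes and 0.86 per cell. Rrm2, a subunit of ribonucleotide reductase, was at 129 and 152 CPM in Div3 and 205 and 225 CPM in Div5 (1.53-fold higher, log2 0.62, SE 0.07, edgeR adjusted p = 3.2e-06), and Dut, Tyms and Mthfd2 rose (log2 0.53, 0.43 and 0.52). Of 74 respiratory chain and ATP synthase genes 47 were higher (63.5%) and 0 lower, and the median log2 change was 0.21 relative to all genes and 0.74 per cell. The higher count was 19 without the Div3 library of host 196, where 1 was lower, and 24 without the Div5 library of host 197. Cycs, which encodes cytochrome c, had the largest change of that list (from 54.7 ± 3.76 to 76.7 ± 9.42 CPM, 1.4-fold, edgeR adjusted p = 3.63e-05).

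In glycolysis 12 of 27 were higher (44.4%) and 3 lower (11.1%; 1 without the Div3 library of host 196), and the median log2 change was 0.23 relative to all genes and 0.61 per cell. Hk2 (from 21.5 ± 2.06 to 32.6 ± 1.72 CPM, 1.51-fold, edgeR adjusted p = 4.43e-05), the hexokinase, and Slc16a1 (from 26 ± 4.04 to 40.7 ± 0.193 CPM, 1.56-fold, edgeR adjusted p = 8.61e-05), the lactate exporter, rose with Tpi1, Pgam1, Pgk1 and Ldha (log2 0.47, 0.44, 0.43 and 0.33). Pdk1, the kinase that closes pyruvate dehydrogenase, lost share (log2 -0.52, and 0.029 with spike-in scaling). Of the sterol and lipid genes, the synthesis genes Fdps, Sqle, Cyp51 and Idi1 and the desaturases Fads1 and Fads2 rose (log2 0.69, 0.64, 0.55, 0.49, 0.90 and 1.30). The cholesterol exporters Abca1 and Abcg1 fell, as did Mylip, which targets the LDL receptor for breakdown (log2 -1.68, -0.75 and -0.22). For the list 16 of 36 were higher (44.4%) and 3 lower (8.33%), against 18.2% and 17.1% of all tested genes. The median log2 change was 0.21 relative to all genes and 0.69 per cell. Proteasome subunits rose in 30 of 37 cases (81.1%) and fell in 0, and the median log2 change was 0.28 relative to all genes and 0.81 per cell. Psma5, of the core particle, was at 68.4 and 72 CPM in Div3 and 89.3 and 96.1 CPM in Div5 (1.32-fold higher, log2 0.40, SE 0.06, edgeR adjusted p = 4.81e-05), and Psmd1, of the cap, was at 128 and 137 CPM in Div3 and 170.1 and 177 CPM in Div5 (1.31-fold higher, log2 0.39, SE 0.06, edgeR adjusted p = 4.31e-05). The 7 without a call included the immunoproteasome subunits Psmb8, Psmb9 and Psmb10 and the activators Psme1 and Psme2, which interferon induces. Redox genes were higher in 13 of 32 cases (40.6%) and lower in 2 (6.25%; 1 with any 1 library left out), and the median log2 change was 0.29 relative to all genes and 0.70 per cell. The risers included Prdx4, the ER peroxiredoxin (log2 0.45), Txnrd1 (0.57) and Prdx1 (0.54) beside the theta transferases.

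**Figure D3:**
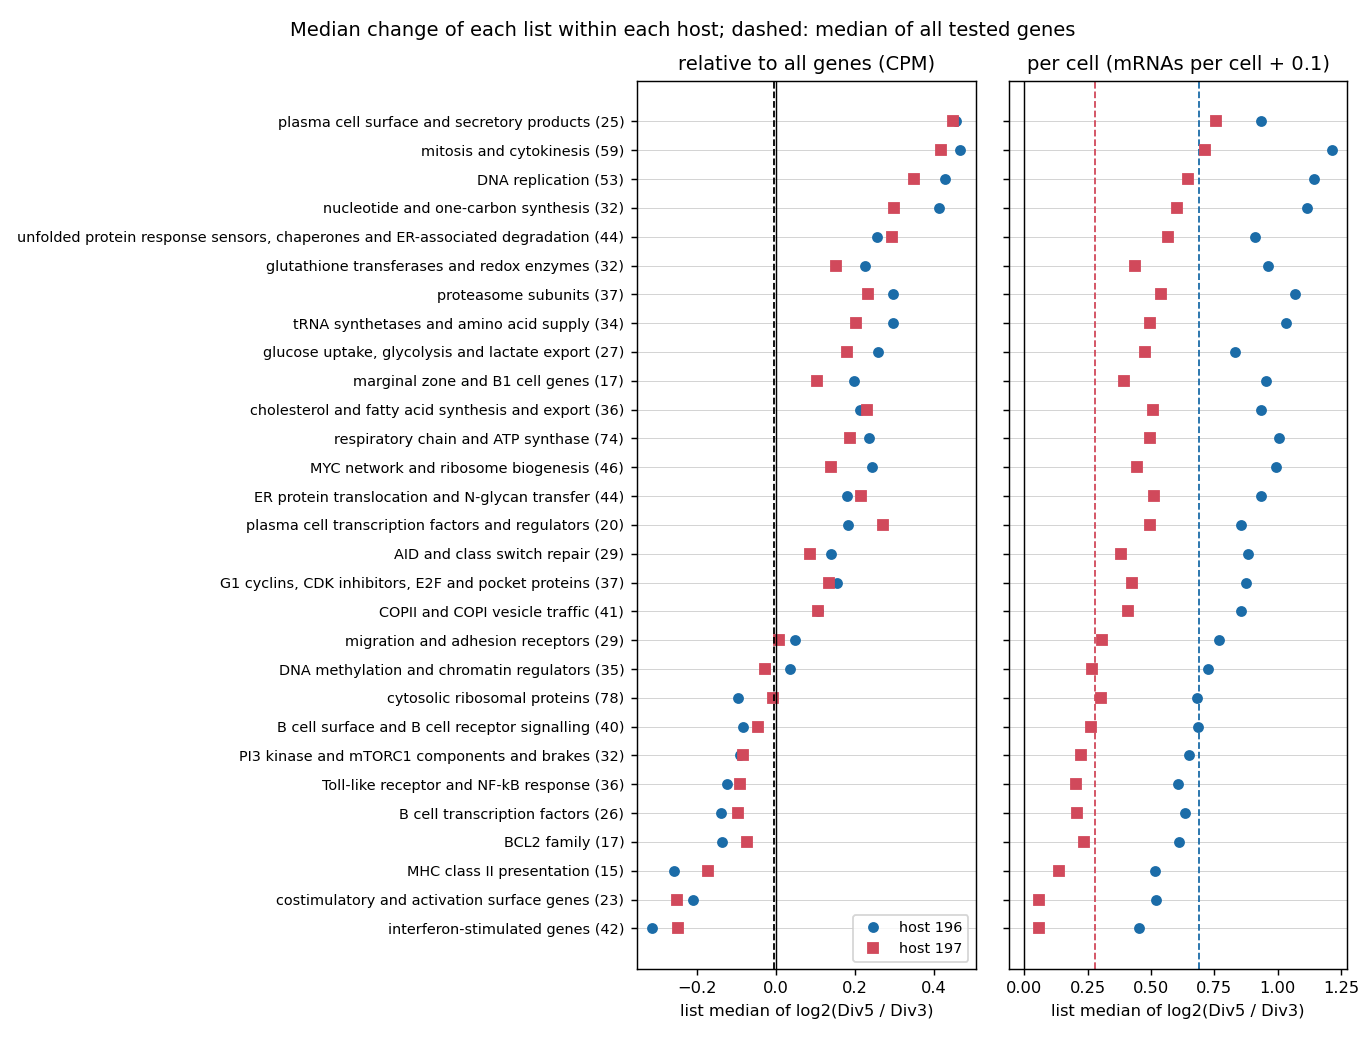
Median log2 change of each gene list, Div5 against Div3, within host 196 (blue circles) and host 197 (red squares), relative to all genes (left) and per cell (right), with the number of tested genes in parentheses and the median of all tested genes dashed. The hosts lie close together on the relative scale and apart per cell, where the all-gene medians were 0.69 and 0.279.

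Genes of class switching and somatic hypermutation were more often higher than lower. Of 29 tested 11 were higher (37.9%) and 1 lower (3.45%), and the median log2 change was 0.15 relative to all genes and 0.63 per cell, with 7 higher without the Div3 library of host 196, and 5 and 6 without the Div5 libraries of hosts 196 and 197. Nfil3, a factor for switching to IgE, rose from 2.09 ± 0.683 to 5.23 ± 1.85 CPM (2.47-fold, edgeR adjusted p = 0.000755), Exo1, a mismatch repair exonuclease, rose from 25 ± 3.7 to 36.6 ± 1.99 CPM (1.46-fold, edgeR adjusted p = 0.000249), and Ung, the uracil glycosylase, rose by log2 0.29. Atm, the kinase that senses broken DNA, was the lower member (log2 -0.27), with 0 lower without the Div3 library of host 196 or the Div5 library of host 197. Of 35 chromatin regulators 8 were higher and 8 lower (22.9% each, near the 18.2% and 17.1% of all tested genes), with 4 lower without the Div3 library of host 196 and 5 without the Div5 library of host 197. Uhrf1, which brings the maintenance methyltransferase to DNA, was at 269 and 309 CPM in Div3 and 400.2 and 400 CPM in Div5 (1.39-fold higher, log2 0.47, SE 0.08, edgeR adjusted p = 0.00019), and Dnmt1, Ezh2, Suz12 and Hells rose (log2 0.24, 0.43, 0.26 and 0.43). Kmt2a, a histone H3 lysine methyltransferase, was at 608 and 543 CPM in Div3 and 419 and 366 CPM in Div5 (1.47-fold lower, log2 -0.55, SE 0.06, edgeR adjusted p = 2e-06), and Dnmt3a and Tet3 lost a little share (log2 -0.16 and -0.17). For that list the median log2 change was 0.0049 relative to all genes and 0.52 per cell, and spike-in scaling gave Kmt2a a log2 change of 0.00093.

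Genes of the Toll-like receptor and NF-kB response and of the interferon response lost share. In the first list 13 of 36 were lower (36.1%) and 3 higher (8.33%), with 1 higher without the Div3 library of host 197 or either Div5 library, and the median log2 change was -0.11 relative to all genes and 0.42 per cell. The subunits Rel, Relb, Nfkb2, Rela and Nfkb1 were all lower (log2 -0.47, -0.34, -0.24, -0.22 and -0.12), as were the feedback inhibitors Nfkbie (-0.40), Nfkbia (-0.20) and Tnfaip3 (-0.25). Per cell Rel was at 3.32 and 3.68 mRNAs per cell in Div3 and 4.06 and 3.32 in Div5 (log2 0.069, limma adjusted p = 0.777), with no call. Tlr4, the LPS receptor, its partner Ly96 and Myd88 were not called (log2 -0.14, 0.30 and 0.042). Il6 was called higher at under 1 CPM (from 0.18 ± 0.0688 to 0.845 ± 0.0446 CPM, 4.63-fold, edgeR adjusted p = 0.0118) and lost the call without the Div3 library of host 197 (adjusted p = 0.151) and without the Div5 library of host 196 (0.0681) or 197 (0.0519). Il6 passed the count filter only through its Div5 libraries. Of 42 interferon-stimulated genes 24 were lower (57.1%) and 1 higher (2.38%), against 17.1% and 18.2% of all tested genes. The median log2 change was -0.29 relative to all genes and 0.25 per cell. The lower count was 14 without the Div3 library of host 197 or the Div5 library of host 196. Oasl2, an antiviral oligoadenylate synthetase family member, was at 18 and 23.5 CPM in Div3 and 11.7 and 13.3 CPM in Div5 (1.66-fold lower, log2 -0.73, SE 0.12, edgeR adjusted p = 0.000115), and Irf9 and Stat2, which carry the signal, were lower (log2 -0.29 and -0.28). Irf7 was at 11.9 and 18.2 CPM in Div3 and 7.99 and 9.65 CPM in Div5 (1.71-fold lower, log2 -0.77, SE 0.17, edgeR adjusted p = 0.00183), and 0.0755 without the Div3 library of host 197. The groups did not overlap for Oasl2 or Irf7. Cxcl10, a chemokine and ligand of CXCR3, was the single riser, at 6.87 and 9.36 CPM in Div3 and 15.5 and 21.1 CPM in Div5 (2.24-fold higher, log2 1.17, SE 0.14, edgeR adjusted p = 3.72e-06).

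The interferon-stimulated response element was searched by its core, GAAA, any 2 bases and GAAA, on both strands in the 250 bases upstream, and 3 promoters of falling members are shown. It was found for 14 of 30 list members with a promoter (46.7%), against 3.37% of tested genes and 3.46% of all genes. The list was chosen for interferon-stimulated genes, so that contrast was not a test of the element. Members with the core were lower in 7 of 14 cases (median log2 -0.24) and those without in 9 of 16 (median -0.19), a description that was not tested, and Cxcl10 also holds it. Outside the list, 292 tested genes held the core, of which 40 were higher and 65 lower. The stretches lie at chr12:26456518-26456617 on the minus strand for Rsad2, chr19:34583362-34583461 on the plus strand for Ifit3 and chr19:34640759-34640858 on the plus strand for Ifit1, with log2 changes of -1.22, -0.61 and -0.52. In all 3 the matches stand in capitals, as the reverse complement of the core, and Ifit3 and Ifit1 hold more than 1. Rsad2, which encodes viperin, had under 4 CPM in every library and lost its call with DESeq2 (adjusted p = 0.0713) and without the Div3 library of host 197 (0.194) or the Div5 library of host 196 (0.0513) or 197 (0.0665).
Rsad2: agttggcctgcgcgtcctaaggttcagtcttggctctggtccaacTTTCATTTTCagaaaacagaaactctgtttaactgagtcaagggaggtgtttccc
Ifit3: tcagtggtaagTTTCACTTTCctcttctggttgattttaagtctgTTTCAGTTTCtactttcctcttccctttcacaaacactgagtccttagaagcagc
Ifit1: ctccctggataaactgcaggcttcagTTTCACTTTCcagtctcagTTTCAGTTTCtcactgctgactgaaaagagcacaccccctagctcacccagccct

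Among BCL2 family genes, Bcl2l11, which encodes the killer protein BIM, was at 75.8 and 85.5 CPM in Div3 and 108 and 123 CPM in Div5 (1.43-fold higher, log2 0.52, SE 0.06, edgeR adjusted p = 2.27e-06), above both Div3 libraries in both hosts. The protective Bcl2l1, which encodes BCL-xL, rose from 11.2 ± 0.0356 to 15.5 ± 2.34 CPM (1.39-fold, edgeR adjusted p = 0.00221), and without the Div3 library of host 197 its adjusted p was 0.0676. Bcl2 (log2 -0.24), Mcl1 (-0.22) and Bid (-0.42, and 0.13 with spike-in scaling) lost share. Bcl2a1b, a close copy of Bcl2a1a and Bcl2a1d, was lower (-0.17) with an uncertain split of reads. Of 17 tested genes of the BCL2 family 4 were higher and 4 lower (23.5% each, near the 18.2% and 17.1% of all tested genes), with 2 lower without the Div5 library of host 196, and the median log2 change was -0.16 relative to all genes and 0.38 per cell. Of the PI3 kinase and mTORC1 genes 3 of 32 were higher (9.38%) and 8 lower (25%), against 18.2% and 17.1% of all tested genes. The median log2 change was -0.065 relative to all genes and 0.44 per cell. The lower members included Pik3r3, a regulatory subunit (from 11.5 ± 1.7 to 5.8 ± 1.21 CPM, 1.97-fold, edgeR adjusted p = 0.000163), and Inpp4b, a phosphatase that limits the pathway (from 17.1 ± 1.08 to 10.8 ± 1.22 CPM, 1.59-fold, edgeR adjusted p = 7.76e-05). The higher count was 1 without the Div5 library of host 197, and the lower count was 4 without the Div3 library of host 196 or the Div5 library of host 197.

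While the cells gained RNA, 54 of 11328 genes fell in number per cell (0.477%), 50 of them in both hosts. That count was 16 without the Div3 library of host 196, 18 without the Div3 and 21 without the Div5 library of host 197, 19 with no filter on low counts and 9 when only the 4 Div3 and Div5 libraries were fitted. Among those with at least 1 mRNA per cell in Div3, Fcgrt was at 1.98 and 1.72 mRNAs per cell in Div3 and 1.13 and 0.684 in Div5 (log2 -0.98, limma adjusted p = 7.51e-05). Zfp318 was at 3.51 and 3.6 mRNAs per cell in Div3 and 2.21 and 1.76 in Div5 (log2 -0.82, limma adjusted p = 0.00155), and Ell3 at 5.71 and 6.04 mRNAs per cell in Div3 and 3.94 and 2.94 in Div5 (log2 -0.77, limma adjusted p = 0.00309). In each of these genes both Div5 values were below both Div3 values. Shank1 (log2 -0.73, limma adjusted p = 0.0037), Pacsin1 (log2 -0.79, limma adjusted p = 0.00145), Tsga13 (log2 -1.12, limma adjusted p = 3.22e-07), Smagp (log2 -0.67, limma adjusted p = 0.00882), Cxxc5, a CXXC zinc finger protein (log2 -0.64, limma adjusted p = 0.0109), and Aire, the autoimmune regulator (log2 -0.63, limma adjusted p = 0.0122), fell too, as did Rnu11, the U11 RNA of the minor spliceosome (log2 -0.96, limma adjusted p = 0.000102). Sidt1 (log2 -0.92, limma adjusted p = 2.84e-05), Marco (log2 -0.83, limma adjusted p = 0.000441), Lrrc16b (log2 -0.71, limma adjusted p = 0.00197), C1qb (log2 -0.62, limma adjusted p = 0.00577), Dll1 (log2 -0.55, limma adjusted p = 0.0108) and Abca1 (log2 -0.53, limma adjusted p = 0.00807) were also called lower per cell, below 1 mRNA per cell in Div3. With any 1 of the 4 libraries left out Sidt1 was still called, whereas Marco, C1qb and Abca1 were called in 2 of these 4 fits and Lrrc16b and Dll1 in 1. Of the 10 genes with at least 1 mRNA per cell, Tsga13 kept its call with any 1 of the 4 libraries left out. Without the Div3 library of host 196 the adjusted p was 0.0721 for Fcgrt, 0.12 for Zfp318, 0.162 for Ell3, 0.0997 for Shank1 and 0.154 for Pacsin1. It was 0.104 for Smagp, 0.21 for Cxxc5 and 0.16 for Aire. Rnu11 lost its call without the Div3 library of host 197 (0.103), and a selection for polyadenylated RNA is not made to capture it. Marco and C1qb did not fall per cell in host 196 (log2 0.036 and 0.10), only in host 197 (log2 -1.70 and -1.34). In the 10 named genes with at least 1 mRNA per cell the falls were larger in host 197, where the total gained less. Zfp318 changed by log2 -0.64 in host 196 and -0.99 in host 197.

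**Figure D4:**
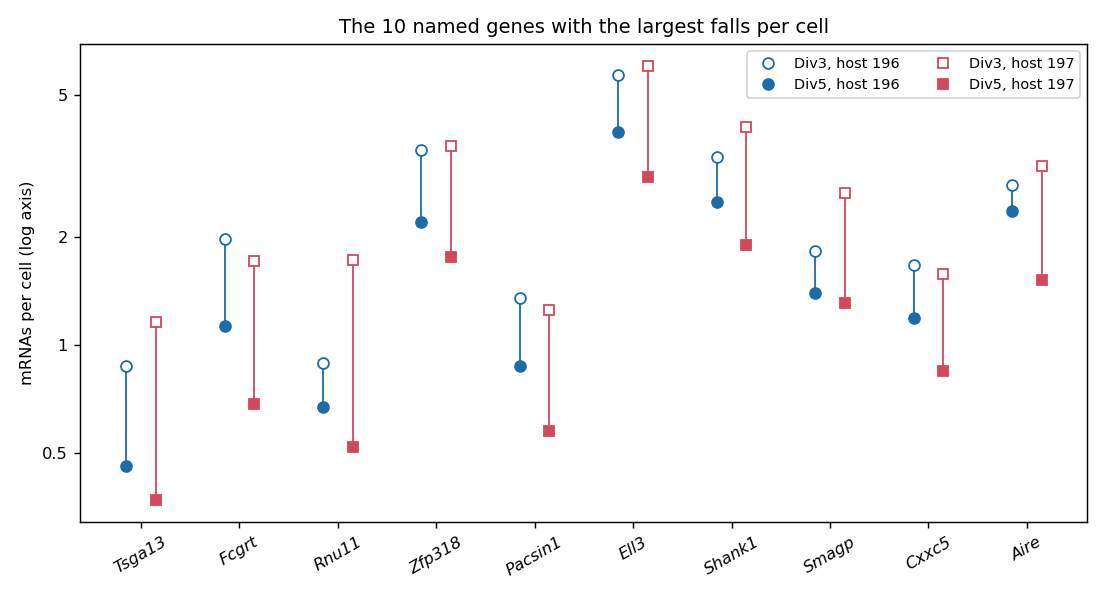
mRNAs per cell (log axis) of the 10 genes with the largest called falls per cell among those with at least 1 mRNA per cell in Div3, with open symbols for Div3, filled symbols for Div5 and lines joining libraries of a host (blue circles 196, red squares 197). All 20 lines go down, and those of host 197 are the longer ones.

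The step from Div3 to Div5 was set beside the gain of CD138, Div8pos against Div8neg, which uses none of the same libraries but the same hosts. In that later step 75.5% of the tested genes were called, 38.8% higher and 36.7% lower. Of the 2057 genes higher in Div5, 1275 were also higher with CD138 (62.0% of this list and 29.0% of the CD138 list) and 486 were lower (23.6% and 11.7%). Of the 1935 genes lower in Div5, 1199 were lower with CD138 (62.0% and 28.9%) and 343 higher (17.7% and 7.81%). The 146 genes at least 2-fold higher in Div5 differed from that pattern: 79 of them were lower with CD138 (54.1% and 1.9%) and 41 higher (28.1% and 0.933%). Of the 123 genes at least 2-fold lower in Div5, 44 were lower with CD138 (35.8% and 1.06%) and 23 higher (18.7% and 0.523%). That lower share was near the 36.7% of all tested genes, and 56 of the 123 were not called with CD138. The change itself differed between the steps for 7073 genes (62.4%; edgeR test of the difference), 3629 (32%) above and 3444 (30.4%) below the CD138 step, and for 3366 with spike-in scaling.

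Named risers differed in the later step. Prdm1, Igj, Xbp1 and Asns were also higher with CD138 (log2 2.51, 3.59, 2.66 and 2.15). Zbtb32, Pik3r6, Itgam, Itgax and Ahnak rose from Div3 to Div5 and were lower in Div8pos than in Div8neg (log2 -4.58, -4.35, -5.79, -5.23 and -5.17). The genes of at least 10 CPM in some group whose change lay furthest above the CD138 change included Itga8, an integrin chain, and Slc6a12, a betaine and GABA transporter. Slc6a12 was at 0.993 and 1.38 CPM in Div3 and 6.95 and 7.73 CPM in Div5 and near 0 in Div8pos (0.0407 CPM). Itga8 was at 0.305 and 0.395 CPM in Div3 and 2 and 1.99 CPM in Div5, with a Div8pos mean of 0. It passed the count filter only through its Div5 libraries. Zeb2os, an antisense gene at the Zeb2 locus, was at 4.05 and 5.21 CPM in Div3 and 6.51 and 7.89 CPM in Div5, and as the strand setting of the counting is not stated its reads cannot be told from those of its partner. The rise of Zeb2os was not called without the Div3 library of host 196 (edgeR adjusted p = 0.132) or the Div5 library of host 197 (0.135). Sema5a, the fourth, was not called from Div3 to Div5 (log2 -0.085). Furthest below were Sdc1, the sulfotransferase Chst1, the calcium channel Cacna1h and the protease Capn5. Their Div8pos means were 326, 101, 84.3 and 103 CPM, against 3.68, 1.38, 1.64 and 6.6 CPM in Div5. Among the lists, 42 of 44 unfolded protein response genes, 42 of 44 ER entry genes and 38 of 41 vesicle genes lay below their CD138 change.

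**Figure D5:**
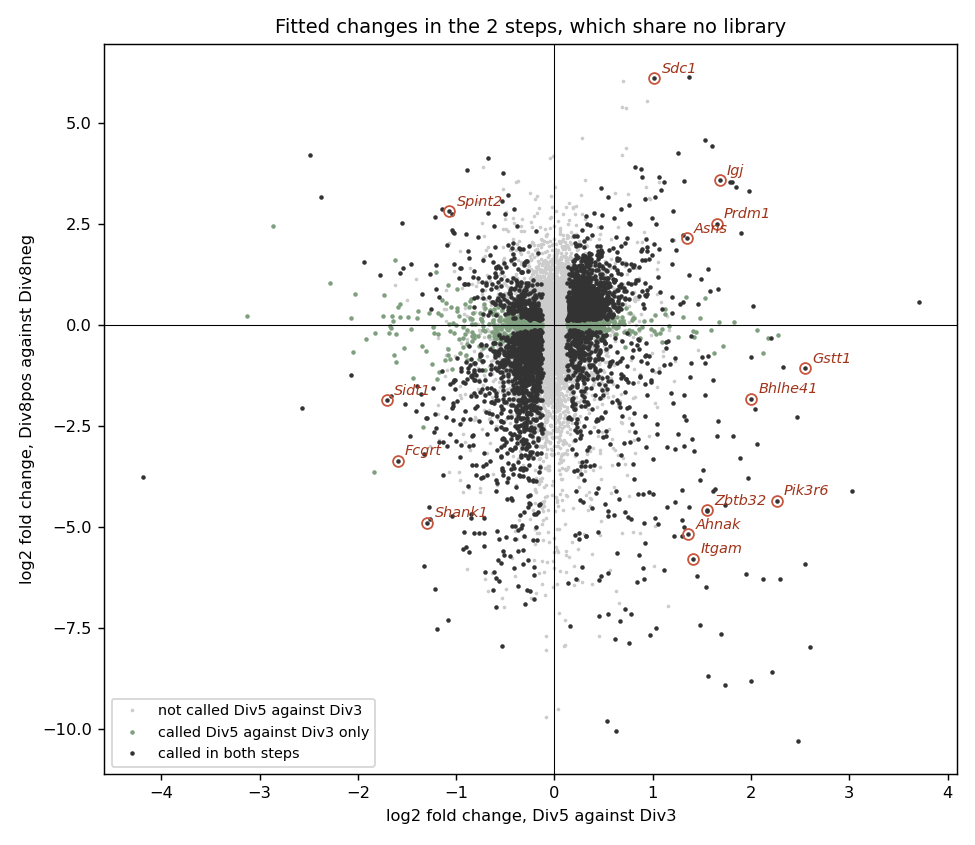
Fitted log2 fold change of each of the 11328 tested genes in Div5 against Div3 (x axis) and in Div8pos against Div8neg (y axis), grey where not called in Div5 against Div3, green where called there alone and black where called in both. Prdm1 and Igj lie in the upper right, Pik3r6, Zbtb32 and Itgam in the lower right, and Sdc1 at the top, with log2 changes of 1.02 and 6.12.

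The first division, Div1 against Div0, also shares no library with this step, and 15.1% of tested genes were called in it (8.25% higher, 6.83% lower). The change differed from that of the first division for 2876 genes (25.4%; 1343 or 11.9% above and 1533 or 13.5% below), but for 319 with spike-in scaling, 63 above and 256 below. Without the Div5 library of host 197 there were 1686, and without the Div3 library of host 196 there were 1904. Mitosis genes rose in both steps, 56 of 59 being called at the first division, and 24 of the 59 lay below their first-division change while 0 lay above it. The proteasome showed the other order: 0 of 37 genes were called at the first division, and 27 lay above their first-division change from Div3 to Div5. So did 24 of 44 unfolded protein response genes, 25 of 46 genes of the MYC network and ribosome biogenesis, 20 of 34 of tRNA charging and amino acid supply and 17 of 53 of replication. Of 42 interferon-stimulated genes 22 lay below their first-division change. Single genes among those furthest above were Cdkn2a, the small GTPase Diras2 (from 0.898 ± 0.407 to 3.8 ± 1.5 CPM, 4.11-fold, edgeR adjusted p = 8.61e-05) and the phosphodiesterase Pde2a, which was not called from Div3 to Div5 itself (log2 0.59) and whose first-division log2 change was -2.90. Cdkn2a and Diras2 passed the count filter only through their Div5 libraries. Furthest below were Shank1, Aire, the Notch ligand Dll1 (from 19.1 ± 0.439 to 8.43 ± 1.89 CPM, 2.25-fold, edgeR adjusted p = 2.09e-05) and Tsga13. Shank1 and Aire had log2 changes of 1.30 and 1.32 at the first division and -1.29 and -1.18 from Div3 to Div5.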

How the data were processed

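Messenger RNA of 12 sorted B cell libraries was measured with a stranded mRNA kit after ERCC spike-ins were added to lysates of 40000 cells, per the labels' protocols. The values used were read counts per gene, which the authors took over exons of UCSC mm9 KnownGenes per the deposited readme, and spike-in counts deposited in the same way. The deposited mRNAs per cell are a spike-in scaled signal: in each library they equal the authors' FPKM values (reads scaled to exon length and library size, per the readme) times 1 factor. FPKM was used only for that check, and RPM values and bisulfite data were not analysed here. Picard, R 3.2.2 and mm9 are named in the submitters' processing notes, and the aligner and the counting tool were not given in the sources used here. Genes without a symbol (90 of 21761, 0.0498 to 0.0943% of counts) were left out.

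Groups and hosts came from the labels. Genes with 10 or more counts in both Div3 or both Div5 libraries were tested, with edgeR 4.0.16 (quasi-likelihood test, TMM factors) for counts and with limma 3.58.1 on log2(mRNAs per cell + 0.1) for per-cell values, so per-cell changes of low genes are understated. Both fits used all 12 libraries with group and host as terms, in R 4.3.3. The host number pairs libraries because they come from 1 animal, and host differences of Div3 and Div5 correlated across 9603 genes (Pearson r = 0.398; genes are not independent replicates). Adjusted p-values are Benjamini-Hochberg over all tested genes, at a threshold of 0.05, and those given for a left-out library or another setting come from the same tool. The code was tested on simulated data. DESeq2 1.42.0, other scalings, filters and pseudocounts, the fit without the host block and leaving out each library were alternatives, and list counts without each library were an alternative chosen after seeing the data. Tables were joined with pandas 2.3.3 and numpy 2.4.6.

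The comparison and the gene lists were chosen with earlier results of these data known. Named genes (159, of which 151 were called) were fixed anchors, the 10 largest called changes in each direction at 10 CPM or more with the same sign in both hosts, and up to 4 called genes per list, or the 2 highest where none was called. They also include 10 genes lower per cell with at least 1 mRNA per cell in Div3, and 4 per direction for each difference between steps. Other list members are printed with their log2 change, and Eef1a1 was chosen after its values were seen. Some genes that the rule names are not reported here. Promoters were RefSeq windows of GRCm38.p6 matched by gene ID for 9078 of 11328 genes, and motif letters were searched in 250 bases.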

Additional observations from a re-analysis of the deposited data

How the results depend on the processing

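The 3992 genes called relative to all others became 6428 with spike-in scaling and 2250 to 3010 with 1 library left out. Without the host block there were 3241, and DESeq2 gave 2720. The 5917 genes called per cell became 2423 with no filter on low counts, 315 when only the 4 Div3 and Div5 libraries were fitted with the host block, and 276 to 7470 with 1 library left out. Without the host block 5371 were called per cell. The 7073 differences from the CD138 step became 3366 with spike-in scaling (6699 without the host block), and the 2876 differences from the first division became 319 with spike-in scaling and 1686 to 2325 with 1 library left out (2016 without the block). Under spike-in scaling the sign turned for 19 named genes, to log2 changes of 0.13 for Bid, 0.23 for Blk, 0.32 for Cd79b, 0.33 for Fau, 0.32 for Flt3, 0.070 for H2-Eb2, 0.15 for H2-Ob, 0.36 for Irf4, 0.00093 for Kmt2a, 0.28 for Myc, 0.14 for Nfkbie, 0.39 for Pax5, 0.029 for Pdk1, 0.30 for Pecam1, 0.082 for Rel, 0.14 for Rfx5, 0.35 for Rps27, 0.12 for Ticam2 and 0.080 for Tusc3. This scaling counts RNA per cell in place of share. Per cell, Hba-a2, a globin of red cells, turned to a log2 change of 0.78 without the Div5 library of host 197 and -0.80 without that of host 196. The cause of the other shifts was not tested. With 2 libraries per group, per-cell values depend on single spike-in totals, and genes of a few CPM are the least certain.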

Other observations

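The genes named here were chosen after their values were seen. The theta transferases Gstt3, Gstt1, Gstt4 and Gstt2 stand side by side in the RefSeq annotation (GRCm38.p6), flanked by Ddt on one side and Mif on the other, and each was called higher in Div5. Ddt, a dopachrome tautomerase, was at 39.4 and 45.1 CPM in Div3 and 91.9 and 102 CPM in Div5 (log2 1.20, edgeR adjusted p = 1e-09). Mif, a cytokine related to Ddt in sequence, was at 107 and 132 CPM in Div3 and 163 and 169 CPM in Div5 (log2 0.47, edgeR adjusted p = 0.000135). Gstt4 was near the detection limit, at 0.0764 and 0.0659 CPM in Div3 and 1.04 and 1.04 CPM in Div5, and reads from its paralogs may be counted there. It passed the count filter only through its Div5 libraries.

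Further genes outside the lists changed together with the regulators described above. Tbx21, which encodes T-bet, the factor that drives Cxcr3 in lymphocytes, was at 69.8 and 85.8 CPM in Div3 and 141 and 174 CPM in Div5 (log2 1.02, edgeR adjusted p = 3.59e-08). Bhlha15, which encodes MIST1, a factor of secretory cells, was at 1.53 and 2.9 CPM in Div3 and 6.07 and 10.3 CPM in Div5 (log2 1.85, edgeR adjusted p = 0.000127). For both genes the Div5 values lay above the Div3 values in each host. Plxnb2, a semaphorin receptor, Vpreb3, a pre-B cell receptor-associated chain, and Il2rb, a chain of the interleukin-2 and interleukin-15 receptors, were also higher (log2 1.34, 1.19 and 1.23). Il5ra, the interleukin-5 receptor chain, and Egr3, an early response factor, lost share (log2 -1.21 and -0.998), and Il5ra was also lower per cell (log2 -0.54, limma adjusted p = 0.0174). Genes of amino acid breakdown and creatine use were among the risers: Fah of tyrosine breakdown (log2 1.42), Bcat1 of branched-chain amino acid turnover (1.37), Gatm of creatine synthesis (1.15) and the creatine kinase Ckb (1.56).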
